A study of Mus musculus with 2 samples.

Results

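Integrins are cell surface receptors made of an alpha and a beta subunit, which hold cells to extracellular matrix and to other cells, and tetraspanins are small membrane proteins that gather integrins, proteases and immune receptors into clusters in the membrane. The members described here are all genes whose symbol begins as an integrin alpha or beta subunit gene (Itgb8 left out) or is Tspan with a number, and which held at least 20 UMIs (unique molecular identifiers, each standing for 1 captured transcript) over 2 single-cell libraries of immune cells sorted from mouse gliomas. Of 31253 genes, 48 matched by name and 42 were members: 17 alpha subunits, 6 beta subunits, 3 genes named for binding to a beta subunit, and 16 tetraspanins. The 6 matching genes left out held 18 UMIs (Itgb2l), 13 (Tspan18), 11 (Itgb6), 5 (Tspan1), 5 (Tspan10) and 0 (Tspan11), and the members just inside the limit held 23 (Itga11), 29 (Itga10) and 31 (Itgb1bp2).

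The EM library came from a tumour sample treated with EM, with 72 h in its title, and the PBS library from one treated with PBS, with no time given. EM is not spelled out in the labels used here, and they give no number of animals per library, no strain, age or sex. In both, viable cells carrying CD45.2 and lacking CD45.1 were sorted, so CD45.1 cells were removed from both. There is 1 library per treatment, so no difference below has a replicate check, no test was made, and intervals cover counting error only.

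In leukocytes the beta subunit encoded by Itgb2 joins Itgal, Itgam or Itgax to bind ICAM proteins and complement fragments, the subunit of Itga4 joins Itgb1 or Itgb7 to bind VCAM-1, fibronectin or MAdCAM-1, and Itgae with Itgb7 binds E-cadherin. Itgav forms receptors with several beta subunits that bind matrix proteins carrying the RGD motif and the latent form of TGF-beta. Itgae and Itga1 are widely used as surface marks of T cells that stay in tissue.

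The EM library kept 7967 cells (19302929 UMIs, median 2016 per cell) and the PBS library 7756 (43538431 UMIs, median 4303), and 66 barcodes occurred in both. Members made up 0.334% of UMIs in EM and 0.354% in PBS. Cells were placed in classes by marker genes that include no member. A cell needed at least 2 distinct markers of a class and at least 2 times as many as of any other, with these exceptions. For NK cells, Cd247 and Lat were not counted among the T markers. Plasmacytoid dendritic cells needed only more of their own markers than of dendritic markers. These gates placed 92.4% of EM cells and 87.9% of PBS cells. Levels are given as CPM, the member's UMIs per 1000000 UMIs of all cells of the class. In sums over a class, fewer cells with a transcript and less of it per cell cannot be told apart. The libraries also differed in Xist (385 CPM in EM, 18.3 CPM in PBS) and the Y-linked Ddx3y (4.44 CPM in EM, 188 CPM in PBS), so treatment and the sex-linked difference cannot be told apart. Of the members, Tspan7, Tspan6 and Itgb1bp2 lie on the X chromosome.

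Promoters are shown for 2 pairs of subunits that the results turn on. Itga4 and Itgb1 encode partners whose transcripts differed in opposite directions in CD8 T cells, and Itgam and Itgax are neighbouring genes of which Itgax was at least 2-fold higher in EM there and Itgam was not. Each sequence is the RefSeq window of 300 bases, from 250 before to 50 after the gene's start, 5′ to 3′ on the gene's own strand in build GRCm38.p6: Itga4 at chr2:79255176-79255475, Itgb1 at chr8:128685404-128685703, Itgam at chr7:128062390-128062689 and Itgax at chr7:128129300-128129599, all on the plus strand. Capitals mark matches on either strand to GAGGAA (an ETS/PU.1-type core), TGTGGT (a RUNX-type core), TGANTCA (AP-1) or GGGCGG (a GC box).
Itga4: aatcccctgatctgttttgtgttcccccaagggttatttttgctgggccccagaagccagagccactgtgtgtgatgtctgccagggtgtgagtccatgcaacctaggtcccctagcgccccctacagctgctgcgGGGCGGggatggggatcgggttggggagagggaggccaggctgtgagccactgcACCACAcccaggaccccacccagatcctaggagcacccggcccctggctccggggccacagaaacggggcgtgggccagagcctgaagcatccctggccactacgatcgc
Itgb1: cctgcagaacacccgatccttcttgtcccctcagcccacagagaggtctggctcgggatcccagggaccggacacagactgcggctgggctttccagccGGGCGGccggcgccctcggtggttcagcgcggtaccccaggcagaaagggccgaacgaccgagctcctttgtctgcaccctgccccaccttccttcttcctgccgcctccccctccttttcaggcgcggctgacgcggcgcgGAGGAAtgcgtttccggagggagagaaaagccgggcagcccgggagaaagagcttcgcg
Itgam: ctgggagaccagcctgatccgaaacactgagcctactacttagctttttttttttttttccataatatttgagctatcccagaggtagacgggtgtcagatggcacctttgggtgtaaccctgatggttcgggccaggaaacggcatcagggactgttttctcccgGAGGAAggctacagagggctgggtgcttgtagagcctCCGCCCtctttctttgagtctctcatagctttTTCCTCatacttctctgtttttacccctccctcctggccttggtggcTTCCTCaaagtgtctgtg
Itgax: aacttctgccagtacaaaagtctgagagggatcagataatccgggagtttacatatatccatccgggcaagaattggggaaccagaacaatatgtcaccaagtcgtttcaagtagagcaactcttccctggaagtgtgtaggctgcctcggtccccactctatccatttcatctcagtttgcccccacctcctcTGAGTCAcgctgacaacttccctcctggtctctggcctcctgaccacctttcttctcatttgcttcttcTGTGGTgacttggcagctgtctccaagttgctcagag
Of all 32851 RefSeq promoters, 28.3% held GAGGAA, 16.8% TGTGGT, 7.81% TGANTCA and 35.7% GGGCGG. Itgam held 3 GAGGAA matches and Itgax 0, whereas Itgax held 1 TGANTCA and 1 TGTGGT match and Itgam 0 of each. Itga4 and Itgb1 held 1 GC box each, with 1 TGTGGT match in Itga4 and 1 GAGGAA match in Itgb1. By the GENCODE vM21 annotation of GRCm38, Itgal (chr7:127296260-127335138), Itgam (chr7:128062640-128118491) and Itgax (chr7:128129547-128150657) lie in that order on the plus strand. Itga4 spans chr2:79255426-79333123 and Itgb1 chr8:128685654-128733200, both on the plus strand. Promoters were found for 34 of the 42 members, and these matches are letters in a window, not measured binding.

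**Figure D1:**
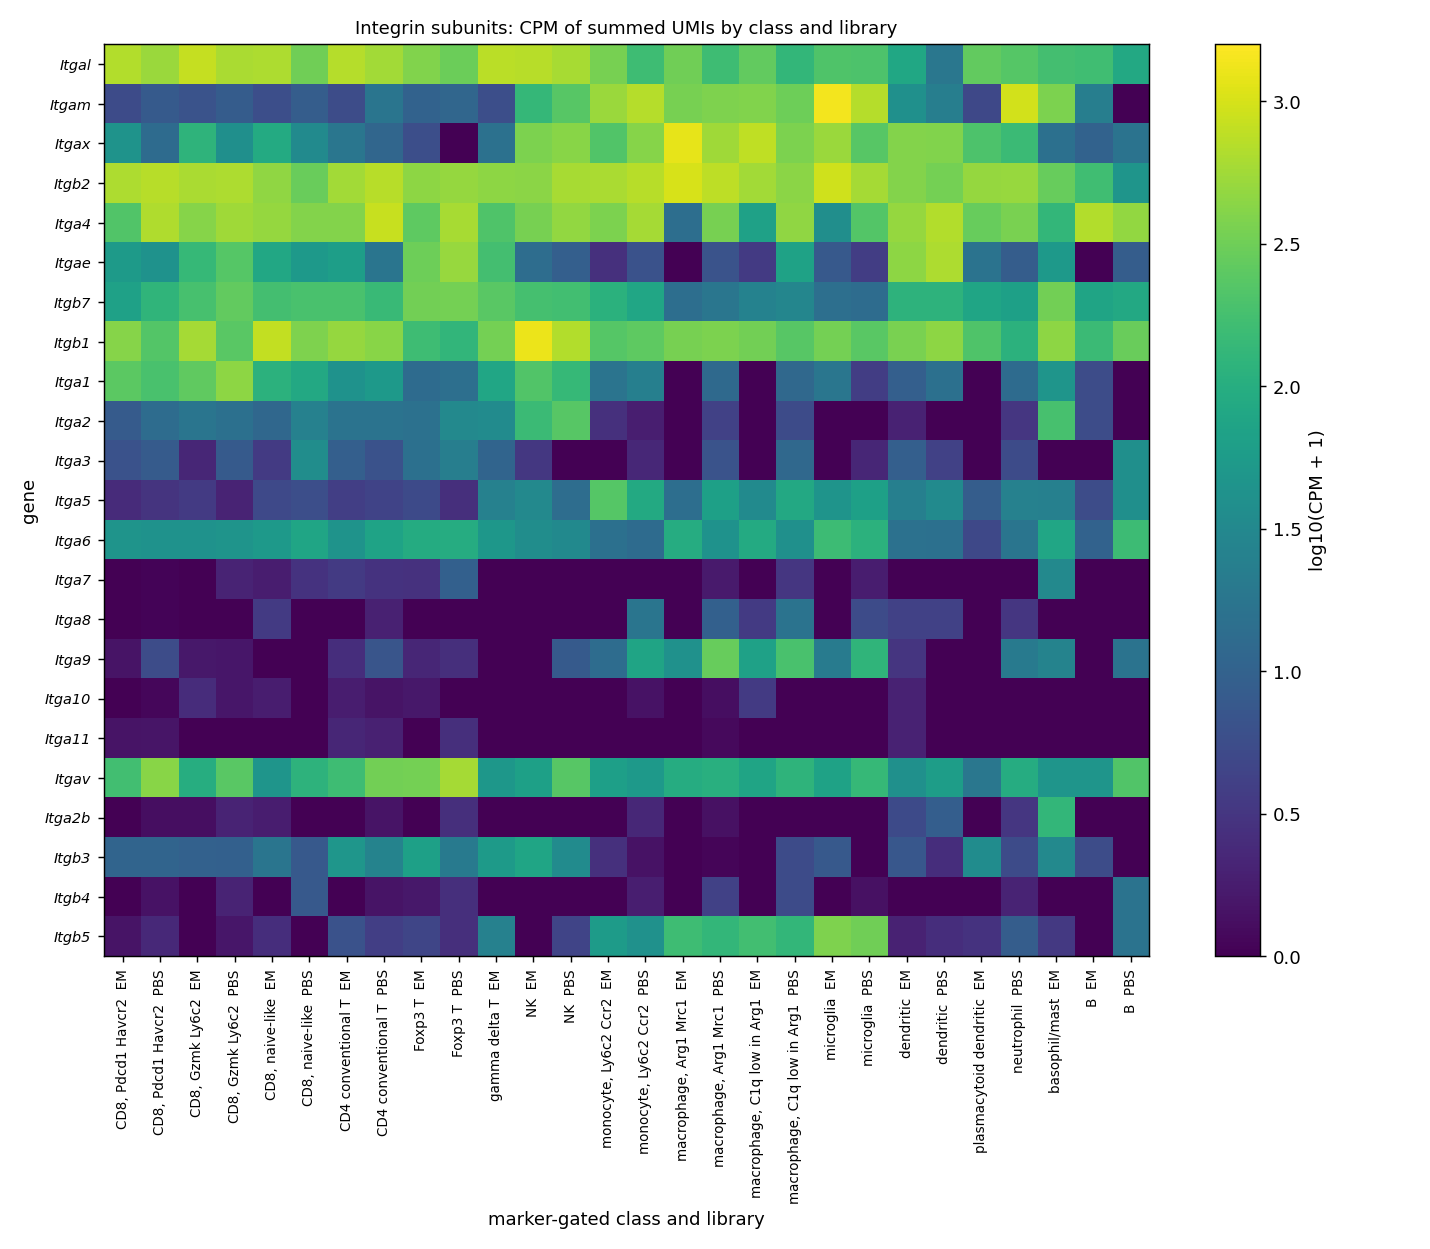
CPM of the integrin subunits (rows) in marker-gated classes of at least 50 cells (columns, EM left of PBS), on a log10(CPM + 1) colour scale; values may be read along a row, not between rows. Itgae is bright in Foxp3 T and dendritic cells, Itga1 in CD8 T and NK cells, Itga9 and Itgb5 in myeloid classes, and Itga2b in basophil/mast cells of EM.

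In CD8 T cells (2595 in EM, 3124 in PBS), 3 of 32 members with at least 20 UMIs were at least 2-fold higher in EM (Itgax, Itgb1, Tspan9), where 4.01% of all tested genes were, and 8 were at least 2-fold lower, where 13.9% were. The members' median log2 ratio of EM over PBS was -0.08, against -0.17 over all tested genes. The mix of CD8 T cells as gated differed between libraries. The Pdcd1 Havcr2 subset (inhibitory receptor genes) held 576 cells in EM and 2254 in PBS. The Gzmk Ly6c2 subset (effector genes, in CD8 T cells placed in neither other subset) held 1432 and 431, and 472 and 199 were naive-like. The main subunits are therefore also given within these subsets. The gates count detected markers, and median depth was 2207 UMIs in EM and 4603 in PBS CD8 T cells. Within EM it was 3192.5 in Pdcd1 Havcr2 and 2031 in Gzmk Ly6c2 cells, and within PBS 5008.5 and 3908. The part of depth in the mix was not tested. The share of all tested genes called higher and lower was 3.93% and 14.1% in the Pdcd1 Havcr2 subset (3 and 3 of 27 members), 3.95% and 7.35% in the Gzmk Ly6c2 subset (2 and 3 of 22), and 5.04% and 9.12% in naive-like cells (3 and 4 of 22).

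Itgb1, the beta subunit shared by most matrix-binding integrins, stood at 568 CPM in EM (95% interval 550 to 586) and 229 CPM in PBS (222 to 236) in CD8 T cells, a log2 ratio of 1.31 (1.25 to 1.38). Within subsets it stood at 412 CPM in EM and 218 CPM in PBS in Pdcd1 Havcr2 cells, 586 and 240 CPM in Gzmk Ly6c2 cells, and 804 and 377 CPM in naive-like cells. EM was higher in each of the 3 subsets. In NK cells it stood at 1281 CPM in EM and 686 CPM in PBS, a log2 ratio of 0.90 (0.76 to 1.04). In CD4 conventional T cells the level was 488 CPM in EM and 425 CPM in PBS, and in Foxp3 T cells 158 and 128 CPM, with an interval of the log2 ratio that included 0 (-0.08 to 0.69). After each cell was thinned to 1000 UMIs, 36.4% of EM and 17.9% of PBS CD8 T cells had an Itgb1 UMI, and 71.3% of EM and 45.8% of PBS NK cells, against 10.6% of EM and 11.3% of PBS B cells.

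Itga4, the alpha subunit that Itgb1 joins in the VCAM-1 receptor, was lower in EM in most T cell classes. It stood at 211 CPM in EM (192 to 232) and 651 CPM in PBS (638 to 665) in Pdcd1 Havcr2 CD8 cells, a log2 ratio of -1.62 (-1.77 to -1.49). In CD4 conventional T cells it stood at 398 CPM in EM and 843 CPM in PBS (log2 ratio -1.08, -1.20 to -0.97). Among these it was called lower outside the naive-like subset and not within it. The log2 ratio of naive-like over the other CD4 cells was 1.11 in EM (0.92 to 1.30) and -0.05 in PBS (-0.21 to 0.10). In Foxp3 T cells the level was 252 CPM in EM and 598 CPM in PBS (log2 ratio -1.25, -1.46 to -1.04). The gap was smaller in Gzmk Ly6c2 cells, at 411 CPM in EM and 547 CPM in PBS, and in NK cells, at 345 and 482 CPM. Naive-like CD8 cells had more in EM, at 500 CPM in EM and 399 CPM in PBS (log2 ratio 0.33, 0.14 to 0.51). The thinned share of Pdcd1 Havcr2 cells with an Itga4 UMI was 17.4% in EM and 44.9% in PBS.

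Itgav was lower in EM in every CD8 subset and in CD4 conventional, Foxp3 and NK cells. It stood at 111 CPM in EM (103 to 119) and 386 CPM in PBS (377 to 396) in CD8 T cells, a log2 ratio of -1.799 (-1.91 to -1.69). The subsets had 168 CPM in EM and 432 CPM in PBS (Pdcd1 Havcr2), 98.6 and 237 CPM (Gzmk Ly6c2), and 45.1 and 117 CPM (naive-like). In both libraries the level was thus highest in Pdcd1 Havcr2 cells and lowest in naive-like cells. NK cells had 64.3 CPM in EM and 235 CPM in PBS (log2 ratio -1.87), CD4 conventional T cells 160 and 329 CPM (-1.04), and Foxp3 T cells 342 and 579 CPM (-0.76). Markers of cycling cells summed to 539 CPM in EM and 1020 CPM in PBS CD8 T cells, and their part in these differences was not tested.

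**Figure D2:**
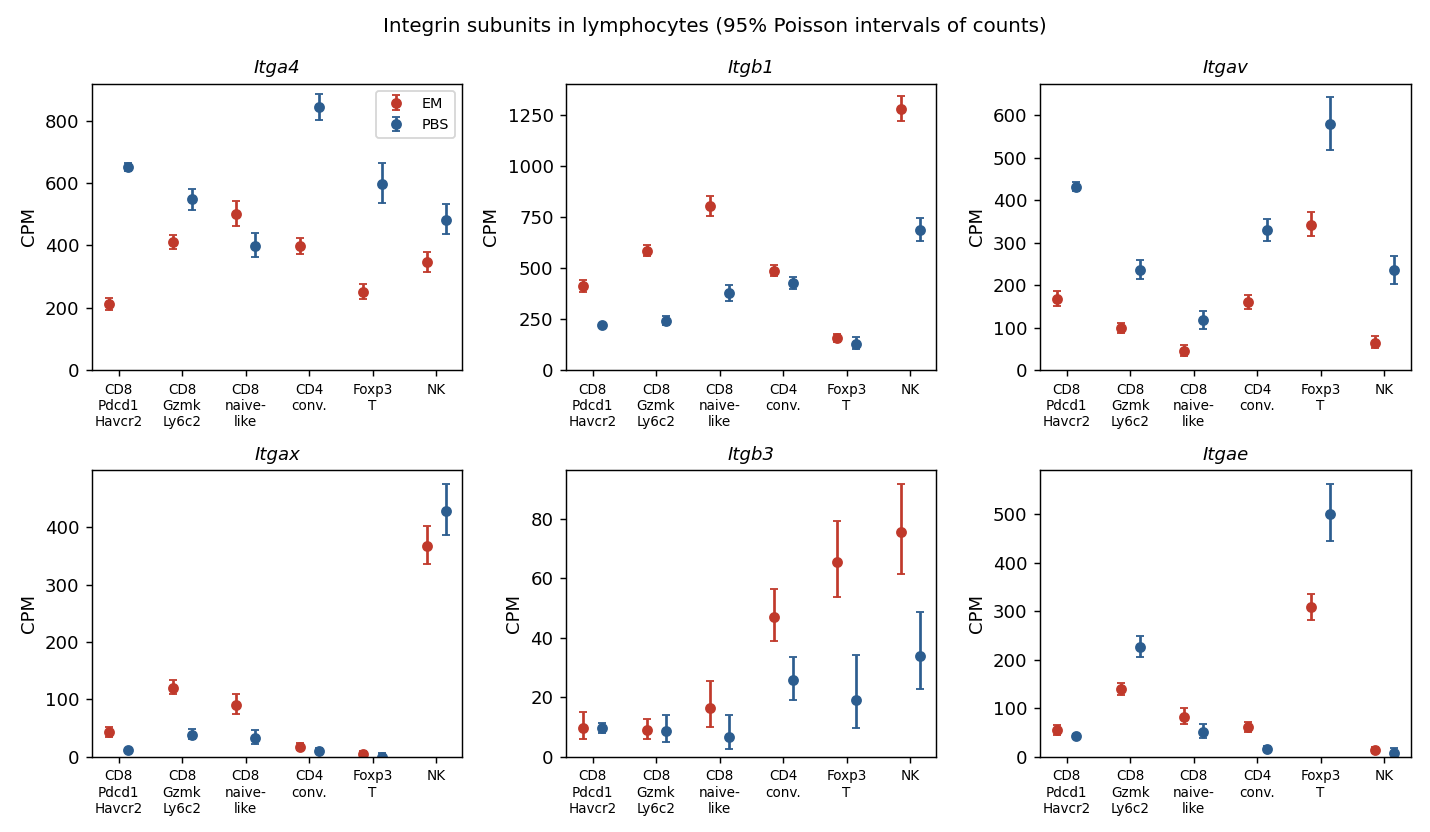
CPM of 6 integrin subunits in 6 lymphocyte classes (EM red, left; PBS blue, right; 1 library each; bars are exact 95% Poisson intervals of the counts). Itgav is lower in EM in all 6 classes, Itgb1 is higher in EM in the 3 CD8 subsets and NK cells, and Itga4 is lower in EM in 5 of 6 classes.

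Itgax, the alpha subunit of a complement receptor best known from dendritic cells and macrophages, stood at 88.6 CPM in EM (81.6 to 96.0) and 17.5 CPM in PBS (15.5 to 19.6) in CD8 T cells, a log2 ratio of 2.34 (2.14 to 2.55). The difference was present in Pdcd1 Havcr2 cells (42.5 CPM in EM, 12.2 CPM in PBS), Gzmk Ly6c2 cells (120 and 38.5 CPM) and naive-like cells (90.2 and 32.9 CPM). Thinned cells had an Itgax UMI in 8.24% of EM (7.20 to 9.38%) and 1.85% of PBS CD8 T cells (1.40 to 2.39%). The share in B cells, which should hold little of it, was 2.13% in EM and 1.89% in PBS, and in CD4 conventional T cells 0.570% and 0.839%; median depth before thinning was 2207 UMIs in EM and 4603 in PBS CD8 T cells, and 1960 and 1767 in B cells. The B cell shares rest on 2 of 94 cells in EM and 1 of 53 in PBS. In PBS, Itgax was higher in CD8 T cells than in CD4 conventional T cells (log2 ratio 0.75, 0.11 to 1.47) and higher in Gzmk Ly6c2 than in Pdcd1 Havcr2 cells (1.66, 1.24 to 2.07). NK cells had 367 CPM in EM and 429 CPM in PBS. The 8 NK markers summed to 3109 CPM in EM and 1298 CPM in PBS CD8 T cells, with none at 0 in either library, and their part in the Itgax difference was not tested. The 10 myeloid markers were lower in EM CD8 T cells, at 61.5 CPM against 87.4 CPM in PBS. The 10 dendritic markers were higher, at 35.4 CPM in EM and 11.9 CPM in PBS CD8 T cells, and at 67.2 and 12.6 CPM in naive-like cells. The part of RNA from myeloid or dendritic cells in the Itgax difference was not tested. The neighbouring gene Itgam had 4.90 CPM in EM and 7.56 CPM in PBS.

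The alpha subunits used as marks of resident T cells differed in opposite directions between CD8 subsets. The Gzmk Ly6c2 class itself was unlike between libraries. Ly6c2 stood there at 5052 CPM in EM and 1234 CPM in PBS, and the 8 NK markers summed to 4490 and 1242 CPM. Their part in the ratios of this class was not tested. Itga1, which binds collagen, stood at 228 CPM in EM and 222 CPM in PBS in CD8 T cells (log2 ratio 0.04, -0.05 to 0.12). It was lower in EM in Gzmk Ly6c2 cells (262 CPM in EM, 455 CPM in PBS, log2 ratio -0.80) and higher in Pdcd1 Havcr2 cells (243 and 189 CPM, 0.36) and in NK cells (215 and 140 CPM, 0.63). Itgae stood at 104 CPM in EM and 71.1 CPM in PBS over all CD8 T cells (log2 ratio 0.55, 0.41 to 0.68). It was lower in EM in Gzmk Ly6c2 cells, at 139 CPM in EM and 226 CPM in PBS (-0.70), and higher in Pdcd1 Havcr2 cells (55.1 and 42.3 CPM, 0.38) and naive-like cells (82.8 and 51.3 CPM, 0.69). In Foxp3 T cells it stood at 307 CPM in EM and 501 CPM in PBS (-0.70, -0.92 to -0.49). In CD4 conventional T cells it was higher in EM, at 60.7 CPM in EM and 16.3 CPM in PBS (log2 ratio 1.90, 1.34 to 2.49). Itgb7, its beta subunit, had 184 CPM in EM and 269 CPM in PBS in Gzmk Ly6c2 cells, 331 and 343 CPM in Foxp3 T cells, and 187 and 148 CPM in CD4 conventional T cells. Foxp3 T cells had Itgae without Itga1: thinned shares were 22.4% in EM and 33.3% in PBS for Itgae, and 1.11% in EM and 0% (0 of 129 cells, up to 2.82%) in PBS for Itga1. NK cells had Itga1 in 13.7% of EM and 8.40% of PBS cells and Itgae in 0.577% and 0.840%.

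**Figure D3:**
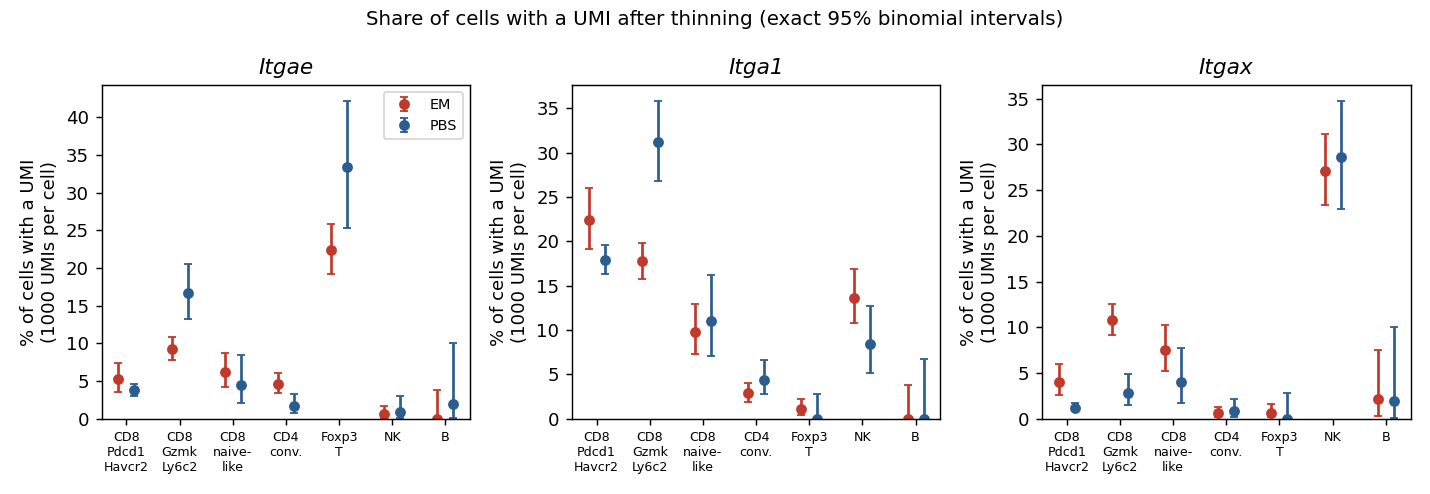
Share of cells with at least 1 UMI of Itgae, Itga1 or Itgax after thinning each cell to 1000 UMIs (EM red, left; PBS blue, right; bars are exact 95% binomial intervals). Gzmk Ly6c2 CD8 cells have Itgae in 9.19% of EM and 16.7% of PBS cells and Itga1 in 17.7% and 31.2%, and Itgax in CD8 subsets is higher in EM.

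Among CD8 T cells, those with an Itgae UMI also had an Itga1 UMI in 23.1% of EM and 37.5% of PBS cells, against 16.7% of EM and 19.2% of PBS cells without Itgae. Cells of 1 library share their source, so this is a description of each library. In Pdcd1 Havcr2 cells the shares with Itga1 were 20% in EM (6 of 30 cells) and 31.8% in PBS where Itgae was found, and 22.6% and 17.4% where it was not. The EM intervals overlapped (7.71 to 38.6% with Itgae, 19.1 to 26.3% without), so the order in EM is not settled. In Gzmk Ly6c2 cells the shares with Itga1 were 24.0% in EM and 33.8% in PBS where Itgae was found, and 17.1% and 30.7% where it was not.

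Among other subunits in lymphocytes, Itgb3 (the beta subunit of the vitronectin and platelet receptors) was higher in EM in Foxp3 T cells, at 65.5 CPM in EM and 19.1 CPM in PBS (log2 ratio 1.78, 0.88 to 2.83), and in NK cells, at 75.6 and 34.0 CPM (1.15, 0.54 to 1.802). CD8 T cells had 10.3 CPM in EM and 9.62 CPM in PBS. In Foxp3 T cells, where 6.62% of tested genes were called higher and 5.9% lower, Itgb3 was the 1 member of 21 called higher, and Itga4 and Itga2 (14.7 CPM in EM, 31.2 CPM in PBS) were called lower. In CD4 conventional T cells Itgae was the 1 member of 23 called higher (4.45% of tested genes), and Itga4, Itgav, Itgam (4.51 CPM in EM, 16.3 CPM in PBS) and Tspan3 (46.8 and 116 CPM) were called lower (7.21%). The Itgae ratio ranged down to 0.28 and that of Tspan3 up to -0.37 under other processing. In the naive-like part of these cells 2 of 21 members were called higher, Itgae and Itgax (5.48% of genes). The 2 called lower there were Itgam and Tspan3 (7.01%). In the rest 2 of 23 were called higher, Itgae and Itgb3 (4.98%). The 4 called lower in the rest were Itga4, Itgav, Itgam and Tspan3 (7.37%). In NK cells, where 5.1% of tested genes were called higher and 8.46% lower, Itgb3 and Itga5, a fibronectin receptor subunit (31.0 CPM in EM, 12.9 CPM in PBS), were called higher of 22 members, the Itga5 log2 ratio ranging from 0.46 to 1.60 under other processing. Itgav, Tspan5 (22.7 and 56.3 CPM) and Tspan32 (9.07 and 22.3 CPM) were called lower there. Itgal, the alpha subunit of LFA-1, was 745 CPM in EM and 526 CPM in PBS in CD8 T cells (log2 ratio 0.50), and its partner Itgb2 598 and 673 CPM (-0.17). Itga6, a laminin receptor subunit, was 44.4 CPM in EM and 43.8 CPM in PBS.

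In NK cells 4 members were at least 4-fold higher than in T cells of the same library, in both libraries. These were Itga2 (a collagen receptor subunit and classical NK surface mark), Itgam, Itgax and Itga5. Their log2 ratios of NK over T cells were 3.38 in EM and 3.89 in PBS for Itga2, and 4.44 and 4.76 for Itgam. They were 2.70 in EM and 4.67 in PBS for Itgax, and 2.999 and 2.22 for Itga5. Of all tested genes 1.87% in EM and 2.52% in PBS were that much higher in NK cells, against 4 of 27 members in EM and 4 of 34 in PBS. Of the members 4 in EM and 9 in PBS were 4-fold lower (7.5% and 11.2% of genes), Itgae among them in both, at -3.34 in EM and -3.25 in PBS. T markers summed in NK cells to 11.03% of the sum in T cells in EM and to 11.5% in PBS. That sum includes Cd247 and Lat, which the NK gate did not count. Cd3e, which it did count, stood at 15.9 CPM in EM and 8.21 CPM in PBS NK cells, against 1099 and 832 CPM in T cells. Trac stood at 36.3 and 21.1 CPM in NK cells, against 1499 and 1332 CPM in T cells. The part of T cell RNA was not tested.

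In monocyte/macrophage cells (678 in EM, 1552 in PBS), 2 of 35 members were called higher in EM (7.69% of tested genes) and 10 lower (22.7%), with a median log2 ratio of -0.30, against -0.26 over all genes. Both shares are close to those of all genes. Median depth was 961 UMIs per cell in EM and 8595 in PBS, and of the 10 called lower, 5 (Tspan12, Tspan9, Tspan8, Itga3 and Itgb4) had 0 UMIs in EM among 1054437. In PBS, 17 cells of this class, among the cells with Tspan8 described below, held 103 of 103 Tspan8 UMIs and 49 of 54 of Tspan12. They also held 33 of 35 Itgb4 UMIs and 53 of 67 of Itga3, so these calls rest mostly on a few PBS cells. Itga9, which binds tenascin C, osteopontin and VCAM-1, stood at 37.0 CPM in EM (26.3 to 50.6) and 231 CPM in PBS (224 to 239), a log2 ratio of -2.65 (-3.14 to -2.19). It was lower in EM in Ly6c2 Ccr2 monocytes (12.6 CPM in EM, 72.4 CPM in PBS), in C1q macrophages low in Arg1 (66.1 and 190 CPM) and in microglia (20.4 and 122 CPM). Its level in Arg1 Mrc1 macrophages of PBS was 281 CPM; this subset made 881 PBS cells but 68 EM cells with 74631 UMIs in all, so it is given no ratio. Itga8, which binds RGD proteins, had 1 UMI in EM (0.948 CPM) and 148 in PBS (10.4 CPM), a log2 ratio of -3.46 (-8.77 to -0.96).

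In Ly6c2 Ccr2 monocytes 2 of 25 members were called higher (7.48% of tested genes) and 4 lower (24.1%), and in C1q macrophages low in Arg1 5 of 21 higher (10.5%) and 4 lower (24.4%). The C1q class was unlike between libraries. Its median depth was 784 UMIs in EM and 1810 in PBS. The 9 microglial markers summed to 2868 CPM in EM and 484 CPM in PBS, and Mrc1 stood at 107 and 904 CPM. Their part in the ratios of this class, that of Itga9 included, was not tested. Ly6c2 Ccr2 monocytes were also unlike between libraries, with a median depth of 3075.5 UMIs in EM and 6013 in PBS. In them Ly6c2 stood at 4920 CPM in EM and 899 CPM in PBS, Mrc1 at 50.2 and 311 CPM, and Arg1 at 41.3 and 454 CPM. The part of these differences in the monocyte ratios was not tested. Itga4 was lower in EM in C1q macrophages low in Arg1, at 66.1 CPM in EM and 468 CPM in PBS (log2 ratio -2.83, -3.47 to -2.24), and in microglia, at 37.3 and 217 CPM (-2.54, -3.55 to -1.69). Ly6c2 Ccr2 monocytes had 370 CPM in EM and 587 CPM in PBS. Itgal was higher in EM in monocytes, at 344 CPM in EM and 161 CPM in PBS (log2 ratio 1.10, 0.84 to 1.35), and in C1q macrophages, at 269 and 131 CPM. Itga5 was higher in EM in monocytes, at 226 CPM in EM and 87.0 CPM in PBS (1.38, 1.05 to 1.70), and lower in C1q macrophages, at 33.0 and 85.4 CPM (-1.37). Itgb7 stood at 71.1 CPM in EM and 30.0 CPM in PBS in monocyte/macrophage cells as a whole (1.24), and at 109 and 76.6 CPM within monocytes (0.52). Under other processing the ratio over the whole class ranged from 0.23 to 1.53. T markers summed in monocyte/macrophage cells to 1.88% of the sum in T cells in EM and to 0.716% in PBS. With T cell RNA subtracted at that level, 2 members were called higher and 10 lower, as without.

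Microglia (229 in EM, 261 in PBS), the resident macrophages of brain, had higher Itgam and Itgax in EM. Itgam stood at 1377 CPM in EM (1246 to 1518) and 691 CPM in PBS (658 to 724), a log2 ratio of 1.00 (0.84 to 1.15), and Itgax at 516 and 234 CPM (1.14, 0.87 to 1.40). Itgb2, the beta subunit of both, had 919 CPM in EM and 582 CPM in PBS (0.66). With 23 members tested, 1 was called higher (Itgax; 9.49% of tested genes) and 5 lower (Itga4, Itgav, Itga9, Tspan5, Tspan9; 28.3%), and the median log2 ratio was 0.26, against -0.28 over all genes. Itgav had 67.8 CPM in EM and 139 CPM in PBS, and Tspan5 6.78 and 16.6 CPM from 2 and 41 UMIs. Another scaling (median of ratios) moved microglial log2 ratios by 0.25 and left no member called higher. The 9 microglial markers summed to 11457 CPM in EM and 3680 CPM in PBS with none at 0. T markers summed to 2.93% of their sum in T cells in EM and 0.545% in PBS, and median depth was 961 UMIs in EM and 9060 in PBS. With T cell RNA subtracted, 1 member was called higher and 5 lower, as without, and after thinning 1 higher and 3 lower. With gates set on thinned cells 1 was higher and 1 lower, and the log2 ratio was 2.74 for Itgax, -1.62 for Itga4 and -0.99 for Itga9. The macrophage genes Mrc1 and Arg1 also differed in microglia, Mrc1 at 27.1 CPM in EM and 663 CPM in PBS, and Arg1 at 88.2 and 313 CPM. The part of these and of the microglial marker level in the ratios of this class, those of Itga4 and Itga9 included, was not tested.

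**Figure D4:**
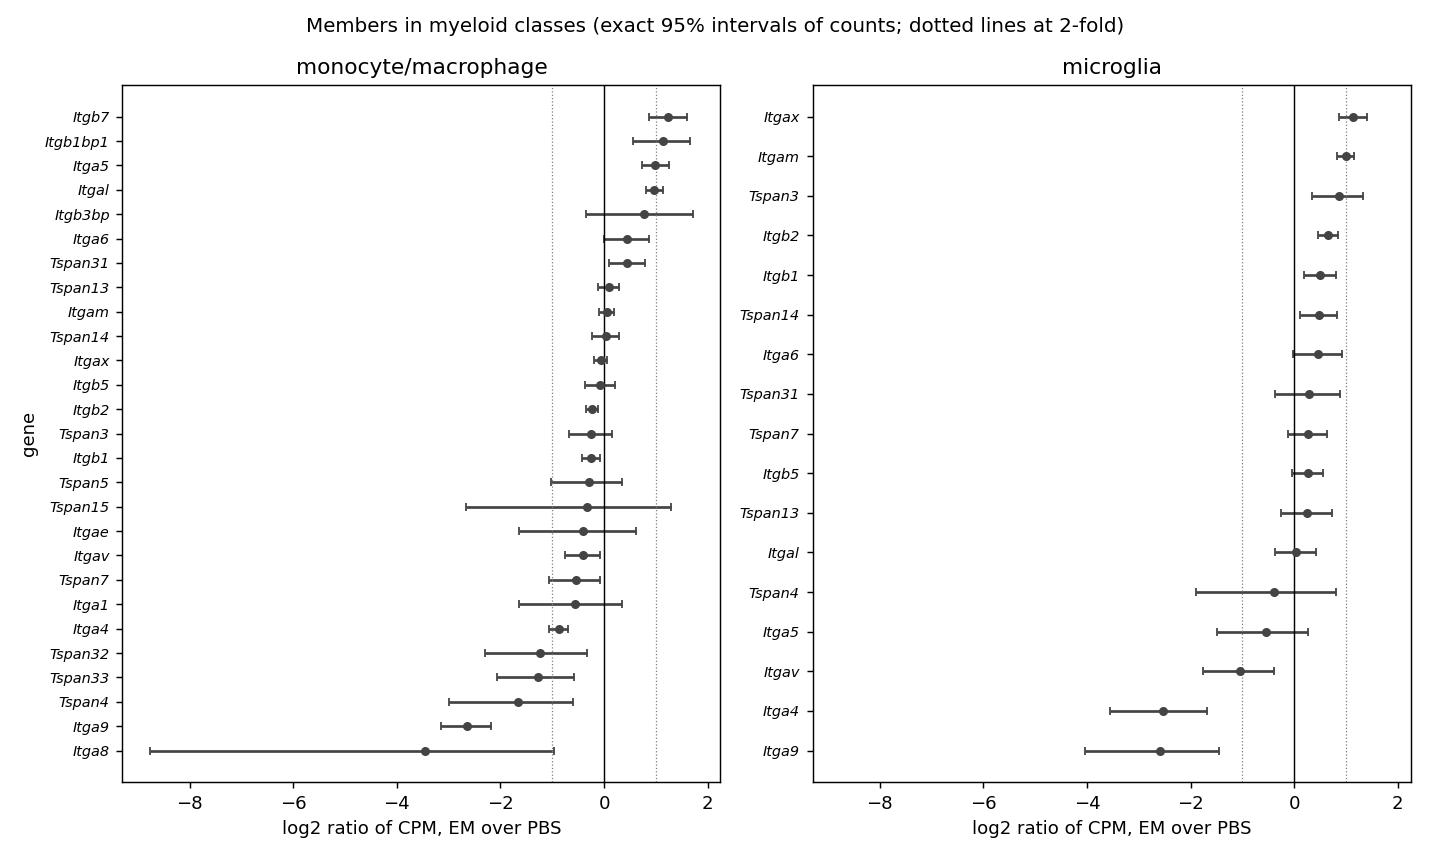
Log2 ratio of CPM, EM over PBS, of members with at least 50 UMIs in monocyte/macrophage cells and microglia (points; bars are exact 95% intervals of the counts; dotted lines mark 2-fold); members at 0 in EM are not drawn. Itga9 lies at -2.65 and -2.58, Itga4 at -0.88 and -2.54, and Itgax at -0.06 and 1.14.

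Against T cells of the same library, 7 of 30 members in EM and 11 of 39 in PBS were at least 4-fold higher in monocyte/macrophage cells (7.76% and 11.9% of tested genes), and 7 and 8 were lower (14.4% and 11.2%). In both libraries the higher ones included Itgam (log2 ratio 6.18 in EM, 5.67 in PBS), Itgax (3.17 and 4.98), Itga9 (5.70 and 5.85), Itga5 (5.11 and 4.61), Itgb5, an Itgav partner (5.42 and 6.06), Tspan7 (4.99 and 5.07) and Tspan33 (3.86 and 5.98). In microglia 7 of 29 members in EM and 9 of 35 in PBS were 4-fold higher (6.92% and 10.9%) and 10 and 9 lower (24.4% and 13.7%). Itgb5 reached 7.27 in EM and 7.57 in PBS there, and Tspan7 7.74 and 7.02.

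Dendritic cells (278 in EM, 70 in PBS) had 1 of 18 members called higher and 1 lower, where 7.67% and 7.94% of tested genes were. Against T cells of the same library, 5 of 29 members in EM and 6 of 35 in PBS were at least 4-fold higher (6.73% and 6.5% of genes) and 8 and 11 lower (12.1% and 18.3%), with Itgax, Itga5 and Tspan33 higher in both. Itgal stood at 79.8 CPM in EM (62.9 to 99.9) and 17.5 CPM in PBS (8.75 to 31.4), a log2 ratio of 2.19 (1.27 to 3.25). Tspan33, an organiser of the protease ADAM10, stood at 70.4 CPM in EM and 145 CPM in PBS (-1.04, -1.52 to -0.57), but this was 0.030 after thinning. Xcr1 Clec9a cells, the cross-presenting type (133 in EM, 36 in PBS), had Itgae at 610 CPM in EM and 973 CPM in PBS and Itgal at 105 and 13.7 CPM. Ccr7 Fscn1 cells, the migratory type (77 and 15 cells), had Itgae at 39.3 and 30.6 CPM but Itga4 at 1488 and 1868 CPM and Itgb1 at 578 and 957 CPM. Within each library, then, Itgae was higher in the Xcr1 Clec9a cells and Itga4 in the Ccr7 Fscn1 cells.

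Plasmacytoid dendritic cells and neutrophils were found in 1 library only, and basophil/mast and gamma delta T cells were too few in PBS to compare, so these give levels alone. Plasmacytoid dendritic cells (168 in EM) had Tspan13 at 653 CPM and Tspan2 at 113 CPM, log2 ratios over EM T cells of 2.35 and 3.63; these were the 2 of 27 members at least 4-fold higher (6.11% of genes), and 10 were lower (16.6%). Basophil/mast cells (162 in EM, 4 in PBS) had Itga2b, the platelet and mast cell partner of Itgb3, at 131 CPM, Itga2 at 184 CPM and Itgam at 374 CPM, with 7 of 30 members at least 4-fold higher than in T cells (5.82% of genes) and 4 lower (19.9%). They held 80.9% of all Itga2b UMIs of EM and 54.2% of those of Itga7, a laminin receptor subunit. Neutrophils (541 in PBS) had Itgam at 971 CPM and Itgax at 150 CPM, with 6 of 34 members at least 4-fold higher than in T cells (8.75%) and 10 lower (30.0%). B cells (102 in EM, 54 in PBS) had 9 tested members, of which Itgb2 was called higher (9.04% of genes) and Itga6 and Itgav lower (14.4%), on few UMIs. Gamma delta T cells (97 in EM, 11 in PBS) had Itgae at 176 CPM and Itgb7 at 239 CPM in EM.

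Of the 3 binding proteins, Itgb1bp1 (ICAP-1, which binds the tail of the Itgb1 subunit) was higher in EM in monocyte/macrophage cells, at 32.2 CPM in EM and 14.7 CPM in PBS (log2 ratio 1.13, 0.56 to 1.66), and at 42.5 and 30.1 CPM in CD8 T cells. Itgb3bp, also a kinetochore protein and nuclear co-regulator, had 19.2 CPM in EM and 20.2 CPM in PBS CD8 T cells. Itgb1bp2 (melusin, known from muscle) had 4 UMIs in EM and 27 in PBS cells. The collagen receptor subunits Itga10 (14 UMIs in EM, 14 in PBS) and Itga11 (7 and 15) were too few for any class.

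Tspan13, Tspan14 and Tspan31 were called in no class compared, and other tetraspanins were called in some classes. In CD8 T cells Tspan3 stood at 63.1 CPM in EM and 62.9 CPM in PBS, Tspan14 (an ADAM10 partner) at 105 and 116 CPM, Tspan31 at 54.2 and 45.6 CPM, and Tspan13 at 83.9 and 106 CPM. Tspan5, another ADAM10 partner, was lower in EM at 22.7 CPM against 31.4 CPM in PBS (log2 ratio -0.47). Tspan32, a blood cell tetraspanin, was 2-fold higher over all T cells (30.9 CPM in EM, 15.1 CPM in PBS) but 8.17 and 8.09 CPM in CD8 T cells and 49.6 and 47.9 CPM in CD4 conventional T cells. Within CD8 T cells it was called higher in Pdcd1 Havcr2 cells (16.4 CPM in EM, 7.90 CPM in PBS) and lower in Gzmk Ly6c2 cells (3.70 and 8.68 CPM, from 12 and 16 UMIs). Tspan9 (33 UMIs in EM, 23 in PBS; 4.90 and 1.36 CPM) was called higher in CD8 T cells, and Tspan4 (1.63 and 3.37 CPM), Tspan6 (0.891 and 2.07 CPM), Itga9 (0.446 and 3.78 CPM), Itga3 (2.82 and 9.03 CPM) and Itgb5 (0.446 and 1.24 CPM) lower, each under 10 CPM in both libraries. Tspan2 had 10.2 CPM in EM and 2.48 CPM in PBS in Pdcd1 Havcr2 cells but 1.23 and 8.68 CPM in Gzmk Ly6c2 cells. In monocyte/macrophage cells Tspan33 (16.1 CPM in EM, 39.1 CPM in PBS), Tspan4, a migrasome protein (6.64 and 20.9 CPM), and Tspan32 (9.48 and 22.2 CPM) were called lower. Tspan7 was 35.1 and 51.4 CPM there and 237 and 197 CPM in microglia. The ADAM10 partner Tspan17 had 38 UMIs in EM and 97 in PBS.

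Tspan8, an epithelial tumour-associated tetraspanin, Tspan12, a partner of the Frizzled-4 receptor, the laminin receptor subunits Itga3, Itga7 and Itgb4, and Tspan15, an ADAM10 partner, shared PBS cells to different degrees. Tspan8 had 502 UMIs in 78 PBS cells, 35 of them in 1 cell, and 5 UMIs in EM, and Tspan12 had 253 UMIs in PBS and 0 in EM. The 78 cells held 81.4% of PBS Tspan12 UMIs, 80.2% of Itgb4, 60.3% of Itga7 (58 UMIs in PBS), 54.9% of Tspan15 and 50.3% of Itga3. The remaining Itga3 and Tspan15 UMIs lay in other cells. Their median depth was 14698 UMIs, against 4271 in other PBS cells, Ptprc (CD45, the sorted antigen) stood at 207 CPM in them and 1209 CPM in others, and 43.6% of them had no class, 26.9% were T and 24.4% myeloid. The 6 non-immune markers summed to 39.8 CPM in them and 85.7 CPM in other cells. With these cells left out, an alternative chosen after seeing the data, PBS monocyte/macrophage cells had Itga3 at 1.01 CPM (4.73 CPM with them), Tspan12 at 0.360 CPM (3.81) and Itgb4 at 0.144 CPM (2.47). PBS CD8 T cells had Itga3 at 6.93 CPM (9.03 CPM with them). Of the 78 cells, 4 were naive-like CD8 cells. These 4 held 68 of 68 Tspan8 UMIs and 32 of 37 Itga3 UMIs of that PBS subset, so the lower calls of both there rest mostly on them. In EM, CD8 T cells had 0 UMIs of Tspan8 and of Tspan12, and PBS CD8 T cells had 85 and 30.

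**Figure D5:**
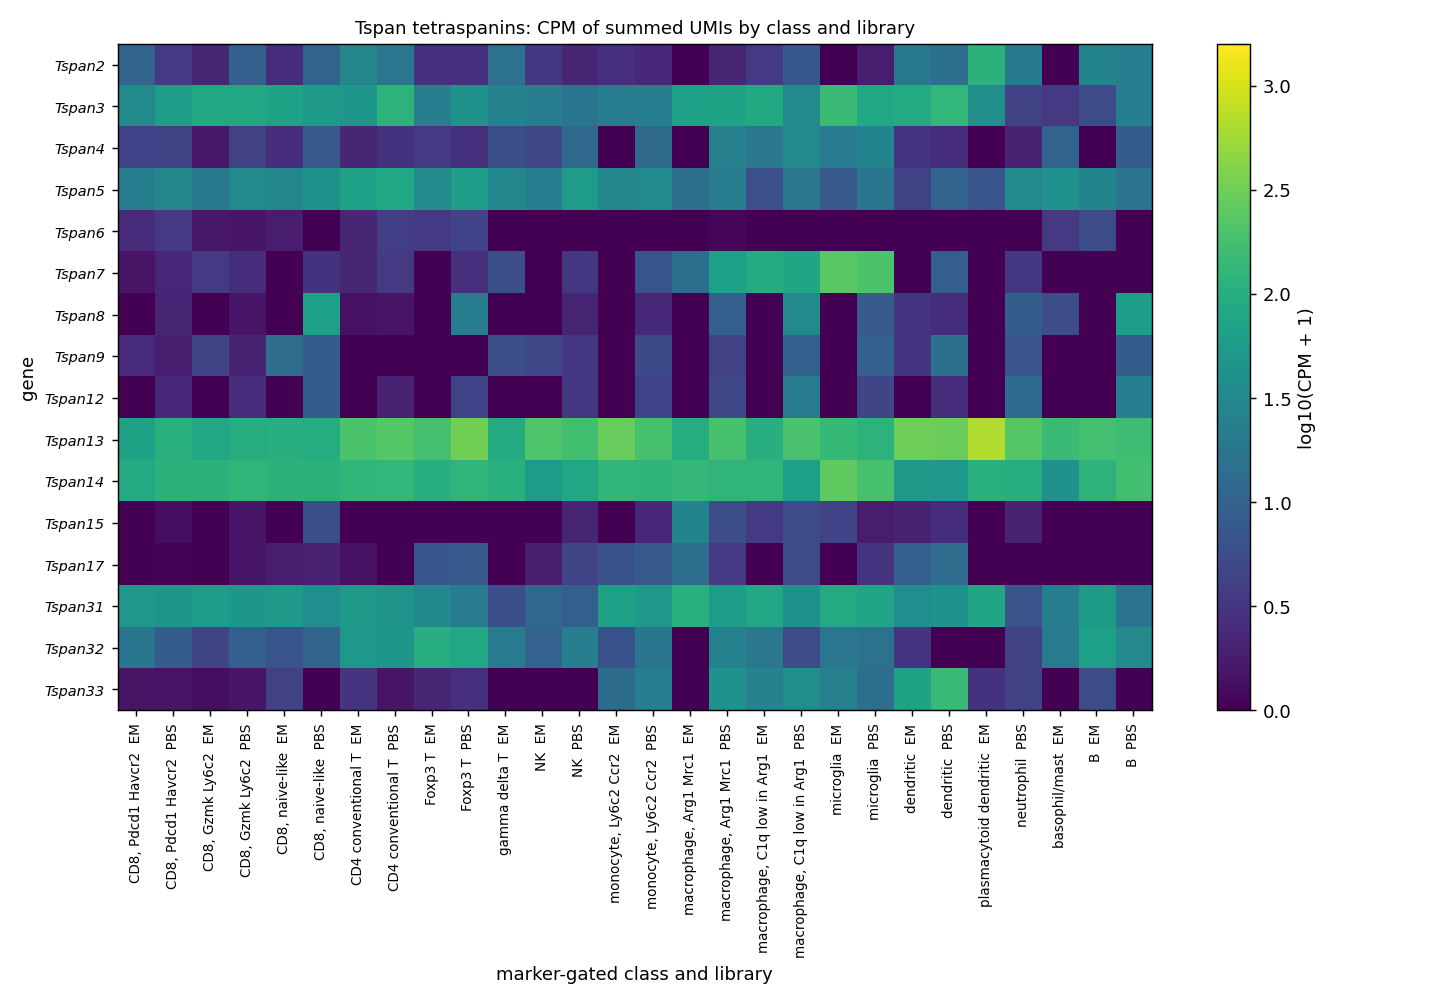
CPM of the 16 Tspan members (rows) by class and library (columns, EM left of PBS), on a log10(CPM + 1) colour scale; values may be read along a row, not between rows. Tspan7 is bright in microglia of both libraries, Tspan2 and Tspan13 in plasmacytoid dendritic cells, and Tspan8 and Tspan12 have signal in several PBS classes.

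Other genes of the pathway were counted in lists, in T cells as a whole (5.1% of genes called higher, 12.2% lower) and in the summed myeloid class (7.48% and 22.1%). Of the 7 tetraspanins named CD, 7 were tested in T cells: Cd37 was called higher (210 CPM in EM, 97.2 CPM in PBS) and Cd63 lower (5.54 and 15.1 CPM), with a median log2 ratio of -0.08, against -0.13 over all genes. In the myeloid class Cd37 (96.3 CPM in EM, 26.3 CPM in PBS) and Cd81 (1052 and 338 CPM) were called higher and none lower, with a median of 0.80, against -0.25. Cd9 there was 419 CPM in EM and 225 CPM in PBS, and Cd53 949 and 661 CPM, while Cd82 was 14.1 and 27.2 CPM and Cd151 23.0 and 24.0 CPM. In microglia, where 9.49% of genes were called higher and 28.3% lower, 4 of 7 were called higher (Cd9, Cd37, Cd63, Cd81) and 1 lower (Cd82, from 4 UMIs in EM and 86 in PBS). In monocyte/macrophage cells alone only Cd37 was called, with a median of 0.38, against -0.26. Cd81 stood there at 473 CPM in EM and 255 CPM in PBS. Microglia were 229 of 907 summed myeloid cells in EM and 261 of 1813 in PBS, so the summed class mixes unlike shares.

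Of 35 integrin ligands and counter-receptors, 23 were tested in T cells, with 3 called higher and 9 lower and a median log2 ratio of -0.77. The 3 called higher were Esm1 (17.1 CPM in EM, 6.76 CPM in PBS), Icam2 (5.46 and 2.67 CPM) and Col1a1 (20 and 14 UMIs). Cdh1, E-cadherin and the Itgae ligand, was just under 2-fold (79.4 and 40.3 CPM). In CD8 T cells alone it was called higher (123 CPM in EM, 45.8 CPM in PBS). CD8 T cells were 2595 of 5192 T cells in EM and 3124 of 4062 in PBS, so T cells as a whole mix unlike shares. Of genes with at least 50 UMIs the lowest ratios were of Fn1, fibronectin (0.475 and 11.2 CPM), Thbs1, thrombospondin (0.633 and 14.6 CPM), and Vcam1, the Itga4 ligand (0.554 and 5.38 CPM). Fn1, Thbs1 and Vcam1 are also macrophage transcripts, and the myeloid markers in T cells summed to 57.8 CPM in EM and 87.2 CPM in PBS; their part was not tested. In the myeloid class 3 of 22 were higher and 8 lower: Spp1, osteopontin and also a marker of the Arg1 Mrc1 gate, stood at 259 CPM in EM and 49.6 CPM in PBS, F11r at 214 and 84.4 CPM, and Cdh1 at 20.8 and 5.77 CPM. Of genes with at least 50 UMIs the lowest ratios were of Col4a1 (1.48 and 15.2 CPM), Postn (0.741 and 3.49 CPM) and Mfge8, an Itgav ligand (8.15 and 37.9 CPM). Nid1 had 0 UMIs in EM and 47 in PBS.

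Of 34 genes of integrin activation and adaptors, 31 were tested in T cells, with 0 called higher and 4 lower (Tln2, Cyth3, Parva, Syk) and a median of -0.07. Cyth3 stood at 10.7 CPM in EM and 28.5 CPM in PBS, Syk at 2.37 and 7.91 CPM, and Tln2 at 0.475 and 3.76 CPM. The highest ratios were of Src (7.28 CPM in EM, 3.86 CPM in PBS), Rasgrp2, an activator of Rap1 (17.6 and 10.2 CPM), and Pxn, paxillin (42.5 and 27.4 CPM). In the myeloid class 4 of 32 were higher and 5 lower. Src was 15.6 CPM in EM and 100.3 CPM in PBS, Cyth3 11.9 and 30.9 CPM, and Syk, a kinase of integrin and Fc receptor signalling, 77.1 and 191 CPM. Rasgrp2 was 13.3 CPM in EM and 3.73 CPM in PBS, Skap1 39.3 and 14.9 CPM, and Ptk2b, a focal adhesion kinase, 251 and 107 CPM.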

How the data were processed

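BD Rhapsody was the single-cell platform, per the labels' protocols. The authors deposited unnormalized UMI counts for each gene and barcode; all values are whole numbers. CASAVA 1.8, STARsolo and mm10 are named in the submitters' processing notes; annotation release and cell calling: not given in the sources used here. Barcodes needed 200 genes, 500 UMIs and no more than 20% mitochondrial UMIs. The members and gene lists were chosen with earlier results of these data known, and the gating rule was set after seeing the data. Subsets were gated within these classes by other rules. CD8 T cells had Cd8a or Cd8b1 without Cd4 or Foxp3, and Foxp3 T cells a Foxp3 UMI without CD8 genes. Microglia needed at least 3 of 9 markers. Pdcd1 Havcr2 and naive-like CD8 cells needed at least 2 markers of their own list and more than of the other list. Gzmk Ly6c2 cells were the CD8 T cells in neither of these that had a UMI of Gzmk or Ly6c2. C1q macrophages low in Arg1 had at least 2 C1q markers and fewer than 2 each of monocyte and Arg1 Mrc1 markers.

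UMIs were summed per class and library. CPM carries exact Poisson 95% intervals, the log2 ratio of EM over PBS an exact conditional binomial interval and shares exact Clopper-Pearson intervals, all for counting error only. No pseudocount was used, 0 UMIs allow up to 3, and a gene was called at 2-fold (4-fold against T cells) with at least 20 UMIs. Named genes are all members, with full values where at least 50 UMIs and 2-fold apart or partner of such a member, and the 3 highest and 3 lowest of each list; a few further values, such as those of the 78 cells with Tspan8, were chosen after seeing the data. Class levels were computed with numpy 2.4.6, scipy 1.17.1 and pandas 2.3.3 and the step was tested on simulated counts. Scrublet in scanpy 1.11.5 called 3 EM and 0 PBS cells, so it did not work and doublets remain. Thinning to 1000 UMIs left 7153 EM and 7054 PBS cells.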

Additional observations from a re-analysis of the deposited data

How the results depend on the processing

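No paired analysis was possible because each group has 1 library. Members called 2-fold were recounted under each alternative; 3 of these (gates set on thinned cells, T cell RNA subtracted, shared barcodes left out) were added after seeing the data. Subtraction of T cell RNA moved no count by over 1.5 times. For members called higher in EM, CD4 conventional T cells had 1, and 0 under a stricter gate, 2 with equal weight per cell and 2 after thinning. Foxp3 T cells had 1, and 2 after thinning and 2 with gates on thinned cells. NK cells had 2, and 1 after thinning. Dendritic cells had 1, and 2 with the stricter cell filter (1000 UMIs, 10% mitochondrial) and 2 after thinning. Microglia had 1, and 2 with the stricter cell filter, 4 with equal weight per cell, 0 with median-of-ratios scaling, 2 without the top 6% of Scrublet scores and 2 without shared barcodes. Monocyte/macrophage cells had 2, and 4 with the stricter cell filter, 4 with median-of-ratios scaling and 4 with gates on thinned cells.

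For members called lower, CD4 conventional T cells had 4, and 2 under a stricter gate and 2 with median-of-ratios scaling. CD8 T cells had 8, and 5 where at least 50 UMIs were required, 3 after thinning and 5 with gates on thinned cells. Foxp3 T cells had 2, and 1 at 50 UMIs, 1 with median-of-ratios scaling and 1 with gates on thinned cells. Dendritic cells had 1, and 0 with median-of-ratios scaling and 0 with gates on thinned cells. Microglia had 5, and 3 at 50 UMIs, 3 after thinning and 1 with gates on thinned cells. Monocyte/macrophage cells had 10, and 3 after thinning. Against T cells, thinning left 4 of 7 higher in EM microglia and 5 of 8 lower in PBS monocyte/macrophage cells. Tspan33 in dendritic cells reversed to a log2 ratio of 0.030 after thinning. The causes were not tested.

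Over 9 alternatives, the log2 ratio ranged from 1.30 to 1.49 for Itgb1, 2.19 to 2.45 for Itgax and -2.01 to -1.66 for Itgav in CD8 T cells. It ranged from -3.26 to -1.89 for Itga9 in monocyte/macrophage cells and 0.28 to 2.45 for Itgae in CD4 conventional T cells. Members at 0 UMIs in EM have no ratio to compare. Depth limits members below about 20 UMIs in a class, mostly tetraspanins.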
